A study of Populus tremula x Populus alba with 3 samples.

Results

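The genes described here are 32 of 577 distinct poplar genes that the authors listed as both hypermethylated and changed in expression when the DNA demethylase PtaDML10 was knocked down, and whose annotation names RNA binding, splicing, RNA polymerases or other steps of RNA processing. They were chosen by words of the Arabidopsis annotation beside each gene, from 12 words or phrases such as RNA-binding, RRM, splic, RNA polymerase, polyadenyl and mRNA. Ribosomal and pentatricopeptide annotations were to be left out, but no gene with one of the words had either. Of the 12 words, 5 (RNA recognition, RNA helicase, exosome, exonuclease and SNRNP) matched no listed gene. The annotation was empty for 88 listed genes and was not analysed here for another 14, so such genes could not be chosen.

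Apical buds came from the hybrid Populus tremula x Populus alba, INRA clone 717-1B4, a laboratory poplar used for genetic transformation. Wild type (WT) was compared with KD2 and KD5, 2 RNA interference lines against PtaDML10, each a separate transgenic line; the promoter of the construct is not given in the sources used here. All 3 genotypes had 4 weeks of long days (16 h light, 21 °C), 12 weeks of short days (8 h light, 19 °C) and 4 weeks of cold (4 °C), and each gave 1 whole genome bisulfite library from 15 pooled buds of 15 plants. Methylation differences therefore have no replicate check, sequencing depth is unknown, and the level of PtaDML10 itself was not analysed here.

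DEMETER-like enzymes such as PtaDML10 cut 5-methylcytosine out of DNA, so that an unmethylated base can be put back. Plant cytosines are methylated in CG, CHG and CHH contexts, where H is A, C or T, and methylation within genes is mostly in CG. RNA polymerases copy genes into transcripts. Splicing factors, above all the arginine and serine rich SR proteins, then guide removal of introns, polyadenylation factors cut the 3' end, and proteins with an RNA recognition motif (RRM) or a KH domain bind the finished or unfinished RNA.

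Most of these RNA genes had a negative expression logFC, and the counts of each sign differed between roles. Of the 32 genes, 21 had a negative logFC (65.6%, exact Clopper-Pearson 95% interval 46.8 to 81.4, counting error only) and 11 a positive one, against 51.0% negative and 49.0% positive among all 577 listed genes. With roles set by annotation words, all 4 splicing factors and 10 of 13 RRM proteins were negative, while 5 of 7 RNA polymerase genes were positive. The median logFC was -0.76 over the 32 genes, with a 95% binomial order interval of -0.86 to 0.80, and -0.63 over all listed genes. Both intervals treat the genes as independent, although 10 of them form 5 pairs with the same Arabidopsis locus and a similar logFC. They describe this chosen list and not a spread between plants. The mean over the 32 was -0.09. The FDR limit leaves a gap around 0, with no RNA gene between -0.65 and 0.77, so the median mainly restates which sign is more common. The tables give 1 logFC per gene for both lines together and state neither its base, read here as log2, nor its direction. A negative logFC therefore cannot be called lower in the knockdowns. The libraries described here are of DNA only. The tissue, time and number of the RNA samples behind the logFC, logCPM and FDR are not described here. If the RNA also came from whole buds, a change in the cells' makeup and a change in RNA per cell cannot be told apart.

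**Figure D1:**
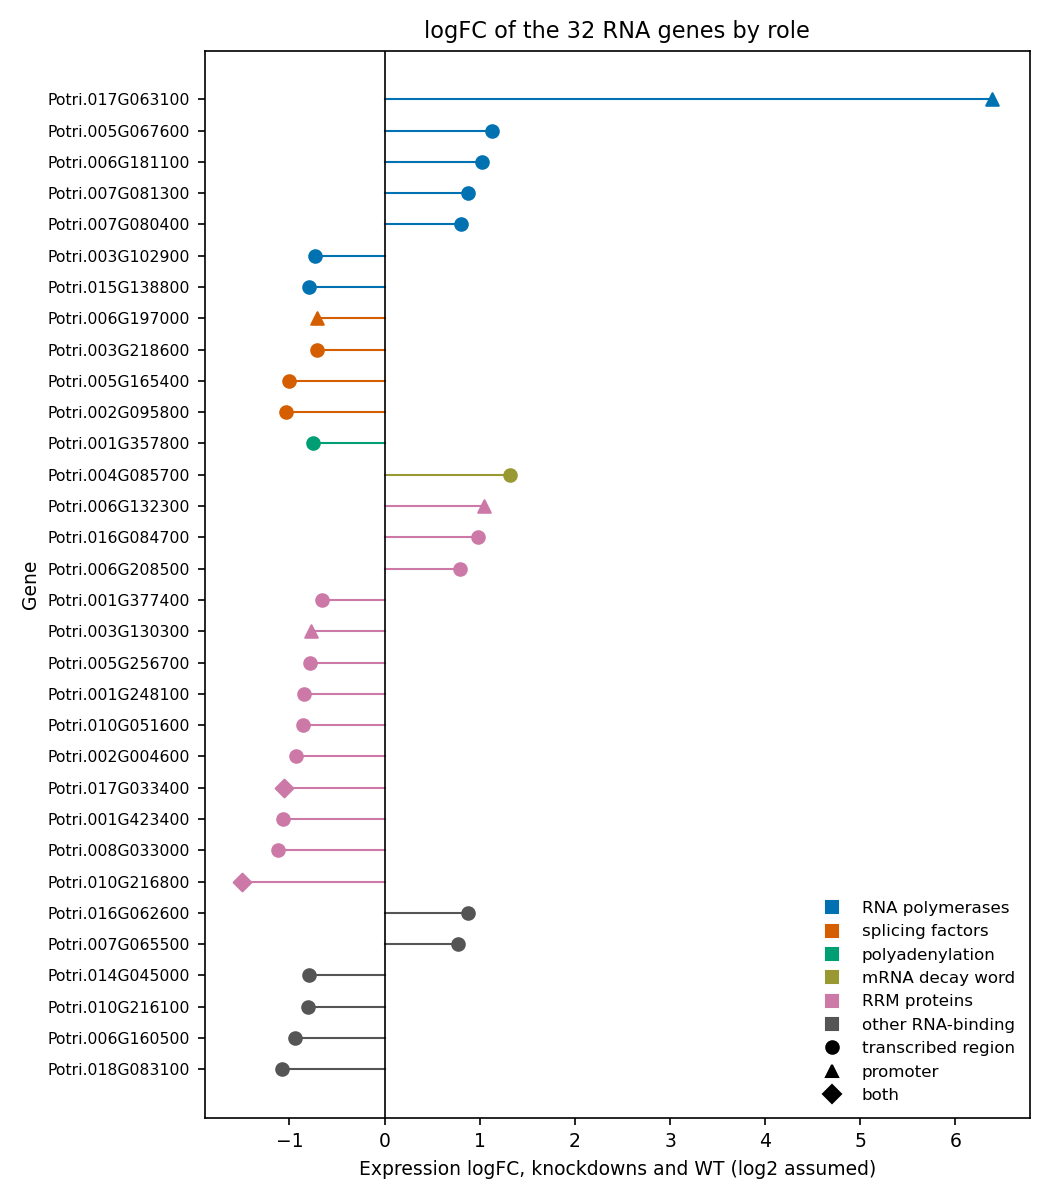
Expression logFC (log2 assumed, x axis) of each of the 32 RNA genes (y axis), coloured by role, with the marker showing whether the gene was listed for its transcribed region, its promoter or both. All 4 splicing factors lie left of 0, 5 of 7 polymerase genes lie right of it, and Potri.017G063100 stands apart at 6.39.

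The sizes of the logFC were modest, with 1 exception. An absolute logFC of at least 1 was listed for 12 of the 32 genes, 7 negative and 5 positive, against 47.8% of all listed genes. Among the 276 listed genes past that size, 34.4% were negative. Among the 32 genes the logFC in the authors' deposited tables ranged from -1.49 for the RRM gene Potri.010G216800 to 1.32 for Potri.004G085700, and only Potri.017G063100, at 6.39, lay beyond. The FDR of the 32 genes ran from 1.86e-06 (Potri.010G216800) to 0.0497 (the RNA-dependent RNA polymerase Potri.007G081300) in the authors' deposited tables. Of the 12 RNA genes with an FDR below 0.005, 10 were negative, against 64.5% of the 183 listed genes below that level.

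The sign of the logFC moved with logCPM, the deposited mean read level on a log scale, which is not corrected for gene length. With all 577 genes split into 5 equal groups by logCPM, all 10 RNA genes of the highest group had a negative logFC, as did 93.1% of listed genes there. In the next group 5 of 7 were negative (66.1% of listed genes), in the middle group 5 of 10 (41.7%), in the second lowest 1 of 4 (23.5%) and in the lowest 0 of 1 (30.2%). If each RNA gene had the share of negative genes found among listed genes outside the rule in its own group, 19.2 of the 32 would be negative, against 21 observed. The median logCPM was 5.34 for the RNA genes and 4.81 for all listed genes, 5.91 for the negative and 4.61 for the positive RNA genes. The median absolute logFC of all listed genes was 1.61 in the lowest group and 0.81 in the highest, and that of the 10 RNA genes in the highest group was 0.82. The part of read level in the sign was not tested beyond these counts.

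**Figure D2:**
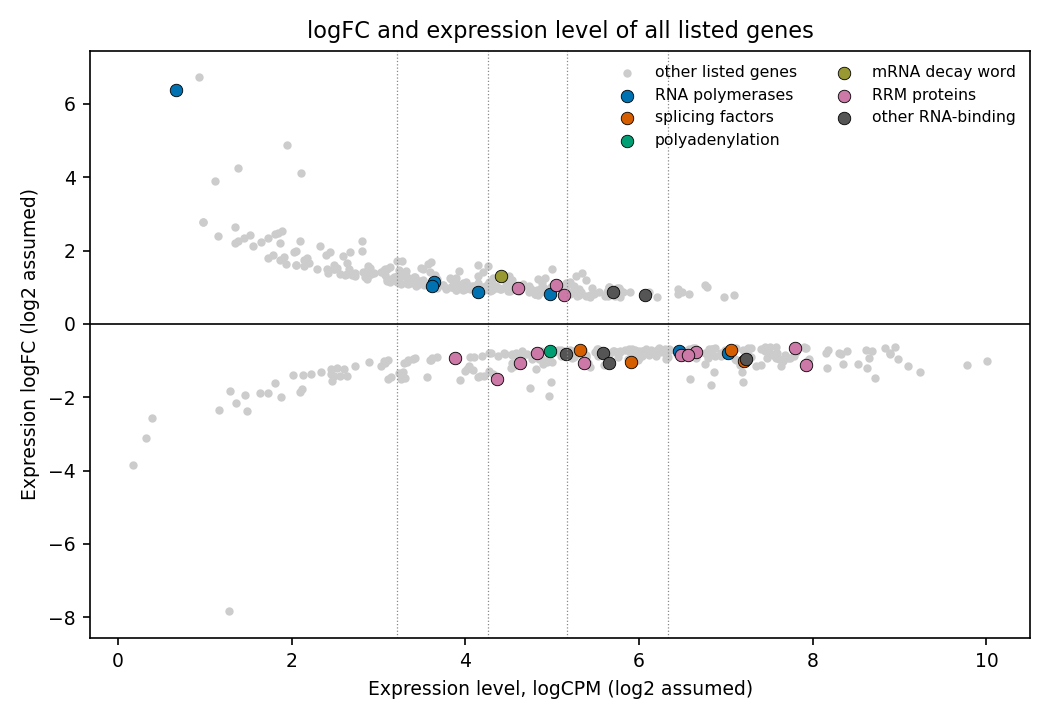
Expression logFC (y axis) against logCPM (x axis, both read as log2) for the 577 listed genes, with the 32 RNA genes coloured by role and dotted lines at the limits of the 5 logCPM groups. The RNA genes follow the band of the other genes, all 10 in the highest group lie below 0, and Potri.017G063100 is at the far left with a logCPM of 0.67.

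The 7 RNA polymerase genes came from nuclear, plastid and RNA-directed enzymes. NRPB4 (Potri.007G080400, chromosome 7, 10424815 to 10427542) had 0.80 at a logCPM of 4.98 in the authors' deposited tables; it is a subunit that in yeast forms part of the stalk of RNA polymerase II. A second gene annotated as an Rpb4 core protein (Potri.005G067600, chromosome 5, 4860751 to 4863126) had 1.13 at a logCPM of 3.64, also in the authors' deposited tables. These genes have different Arabidopsis loci and carry the same sign. Only the first carries the name NRPB4, and which polymerase the second serves was not looked up.

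The other polymerase genes with a positive logFC are not annotated as polymerase II proteins. In the authors' deposited tables the logFC was 1.03 for SCA3 (Potri.006G181100, chromosome 6, 19497748 to 19509500), which in Arabidopsis encodes a nuclear-encoded polymerase that transcribes plastid genes. The authors' deposited tables gave 0.88 for an RNA-dependent RNA polymerase gene (Potri.007G081300, chromosome 7, 10513675 to 10524779). Enzymes of that family copy single-stranded RNA into double-stranded RNA, and some of them supply the small RNAs that direct DNA methylation. Its gene body was listed in CG, CHG and CHH, which holds for 1 other gene of the 32.

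The largest value belonged to a gene that needs care. For Potri.017G063100 the authors' deposited tables listed 6.39 at a logCPM of 0.67, the lowest logCPM of the 32. Its Arabidopsis counterpart (ATCG00170) is a subunit gene of the plastid-encoded polymerase and lies in the plastid genome. Reads from plastid transcripts or from near-identical copies could be counted to such a gene, which was not tested. Its promoter window also lies on a chromosome other than that of its identifier, as described with the promoters.

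The polymerase genes with a negative logFC encode subunits that several polymerases share. The authors' deposited tables gave -0.79 and a logCPM of 7.03 for Potri.015G138800 (chromosome 15, 14722152 to 14724574), named NRPB6A, NRPD6A and NRPE6A. These names mark a subunit of RNA polymerase II and of the plant polymerases IV and V, which act in RNA-directed DNA methylation. For Potri.003G102900 (chromosome 3, 12831292 to 12833083), annotated as the 8 kDa subunit of the N type, the authors' deposited tables gave -0.73 and a logCPM of 6.47. Both had a higher logCPM than the 5 positive polymerase genes, whose logCPM lay between 0.67 and 4.98.

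All 4 genes with a splicing word in their annotation encode SR proteins, which bind exons and bring in the splicing machinery, and all had a negative logFC. Whether genes grouped under other roles, such as the RRM genes, also act in splicing was not looked up. The authors' deposited tables gave -1.04 for one SC35 gene (Potri.002G095800, chromosome 2, 6886315 to 6888675) and -1.002 for the other (Potri.005G165400, chromosome 5, 17196233 to 17199885). For the SC35-like genes they gave -0.71 for SCL30A (Potri.003G218600, chromosome 3, 21447505 to 21451761) and -0.71 for SCL33 (Potri.006G197000), again from the authors' deposited tables. The logCPM of these genes ran from 5.32 to 7.20, levels at which most listed genes were negative.

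By annotation words, polyadenylation and mRNA decay were each represented by 1 gene, the first negative and the second positive. Whether genes grouped under other roles also act in these steps was not looked up. CPSF30 (Potri.001G357800, chromosome 1, 36692593 to 36709207), a subunit of the complex that cuts pre-mRNA before its tail is added, had -0.75 in the authors' deposited tables. The gene annotated as a nonsense-mediated mRNA decay NMD3 family protein (Potri.004G085700, chromosome 4, 7126853 to 7130080) had 1.32 in the authors' deposited tables. In yeast Nmd3 is known for the export of the large ribosomal subunit from the nucleus, so its annotation word does not describe its best known role.

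Among the 13 RRM genes, 10 had a negative logFC and 3 a positive one, with a median of -0.84. The most negative in the authors' deposited tables was Potri.010G216800 (-1.49, logCPM 4.36, chromosome 10, 20355973 to 20359169), listed for both promoter and transcribed region. Next in the authors' deposited tables came Potri.008G033000 (-1.12, logCPM 7.92, chromosome 8, 1827360 to 1832328), an RRM protein with a zinc finger like that of retroviruses and the highest logCPM of the 32. RBP45C (Potri.001G423400, chromosome 1, 44850141 to 44854406), an RNA-binding protein with several RRM domains, had -1.07 in the authors' deposited tables and was the other gene listed in CG, CHG and CHH. The authors' deposited tables gave -1.06 for Potri.017G033400 (chromosome 17, 2871200 to 2874676), the other RRM gene listed for promoter and transcribed region.

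The remaining RRM genes lay closer to 0. In the authors' deposited tables the negative ones were Potri.002G004600 (-0.93), Potri.010G051600 (-0.86), Potri.001G248100 (-0.84), Potri.005G256700 (-0.79), Potri.003G130300 (-0.77) and Potri.001G377400 (-0.65). The positive ones in the authors' deposited tables were Potri.006G132300 (1.05), Potri.016G084700 (0.98, chromosome 16, 6615643 to 6623884) and Potri.006G208500 (0.80, chromosome 6, 22375534 to 22378152). The positive RRM genes had a logCPM of 4.61 to 5.13, inside the range of the negative ones (3.88 to 7.92). All 6 RRM genes in the upper 2 of the 5 logCPM groups were negative, and in the lower 3 groups 4 were negative and 3 positive.

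The 6 other RNA-binding genes, mostly with a KH domain or a general RNA-binding annotation, were split 4 to 2. The authors' deposited tables gave -1.08 for Potri.018G083100 (chromosome 18, 10990708 to 10995589) and -0.95 for Potri.006G160500 (chromosome 6, 15172921 to 15178399), both annotated as RNA-binding protein-related. The KH domain binds single-stranded nucleic acids, and its members differed in sign. The authors' deposited tables gave -0.80 for the KH gene Potri.014G045000 and 0.77 for the KH gene Potri.007G065500 (chromosome 7, 8300603 to 8305002). For the general annotation the authors' deposited tables gave -0.81 for Potri.010G216100 and 0.87 for Potri.016G062600 (chromosome 16, 4396807 to 4414735), the longest of the RNA genes at 17929 bases.

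RNA genes that share an Arabidopsis counterpart had nearly the same logFC. The 32 genes include 5 pairs with the same Arabidopsis locus, 10 genes in all, and both genes of each pair had the same sign, 4 pairs negative and 1 positive. The background is high, since 97.4% of the 38 such pairs among all listed genes had the same sign, so the shared sign is not particular to RNA genes. The difference within a pair was 0.04 to 0.15 on the logFC scale, with a median of 0.07, and the median over all 38 pairs was 0.14. A pair enters only when both genes pass the authors' limits, which narrows the sizes it can show.

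The logCPM gap within a pair ranged from 0.18 (Potri.001G248100 and Potri.003G130300) to 1.59 (Potri.006G160500 and Potri.018G083100). Its median was 0.95 in the 5 pairs of RNA genes and 0.76 when all 38 pairs were counted. In some pairs the place of methylation also differed. For the SC35 pair the authors' deposited tables gave -1.04 and -1.002, at a logCPM of 5.91 and 7.20, and both were listed for CG in the transcribed region. The pair Potri.006G160500 and Potri.018G083100 had -0.95 and -1.08 in the authors' deposited tables, at a logCPM of 7.24 and 5.65, also with CG in both transcribed regions. The authors' deposited tables gave -0.93 for Potri.002G004600 and -0.79 for Potri.005G256700, both again with CG in the transcribed region.

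In the other pairs the listed regions differed. Potri.001G248100 and Potri.003G130300 had -0.84 and -0.77 in the authors' deposited tables, but the first was listed for CHG in the transcribed region and the second for CG at the promoter. That promoter window lies on chromosome 1, not on the chromosome of its identifier, and may belong to another gene. The authors' deposited tables gave 1.05 for Potri.006G132300, listed for its CG promoter, and 0.98 for Potri.016G084700, listed for CG in the transcribed region. In all, 3 of the 5 pairs shared a table, against 71.1% of the 38 listed pairs. Whether reads of 1 copy were counted to the other was not tested.

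Potri.008G033000 also has a listed partner of the same Arabidopsis locus, Potri.010G228700, which is not among the 32 genes. The authors' deposited tables gave -1.12 and -1.14 for them, and both were listed for CHG in the transcribed region.

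**Figure D3:**
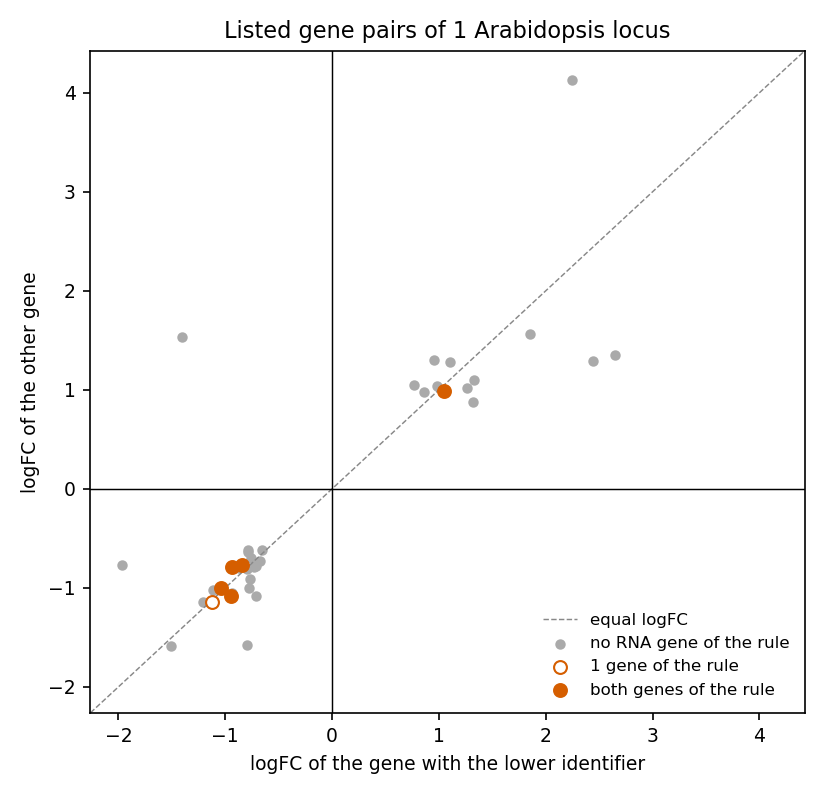
Expression logFC of both genes of each of 38 listed pairs with 1 Arabidopsis locus, the gene with the lower identifier on the x axis and the other on the y axis (log2 assumed). Filled orange points are the 5 pairs in which both are RNA genes of the rule, which lie near the line of equal values, and the open point is Potri.008G033000 with its partner.

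Like the listed genes as a whole, the RNA genes were listed mostly for CG in the transcribed region, and they were seldom listed for CHH. Of the 32, 28 were listed for the transcribed region (90.8% of all listed genes were) and 6 for the promoter (14.4%), 2 of them for both. In the transcribed region 21 were listed in CG (67.2% of listed genes), 11 in CHG (30.8%) and 2 in CHH (21.3%). No RNA gene was listed for CHH alone in the transcribed region, whereas 46 of the 577 listed genes were, and none was listed for a CHH promoter (3.64% of listed genes). In 4 of the 32 the transcribed region was listed in at least 2 contexts, against 23.6% of listed genes. These were Potri.007G081300 and RBP45C in 3 contexts, and Potri.016G062600 and Potri.010G051600 in CG and CHG. No test was made of these differences, and counts this small leave wide margins.

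Coding sequence was the feature listed most often. Of the 28 genes listed for the transcribed region, 16 had coding sequence beside the region (69.1% of 524 listed genes), 9 the 3' UTR (34.0%) and 4 the 5' UTR (17.0%). For 7 no exonic feature was listed (13.9% of listed genes). Those 7 were Potri.005G165400, CPSF30, Potri.016G084700, Potri.006G208500, Potri.001G377400, RBP45C and Potri.006G160500. The tables give no coordinates labelled as those of the methylated regions in gene bodies. A last set of start and end columns has no stated meaning, holds gene coordinates for some genes and was not used. A feature listed with a gene was therefore taken to overlap a region, and the absence of any to mean a region within introns.

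Where exonic features were listed, they lay mostly toward the 3' end of the RNA genes, a difference from the other listed genes that was not tested. Averaged over the features of a gene, the middle lay closer to the 3' than to the 5' end in 17 of 21 RNA genes, against 56.5% of 432 listed genes with 1 gene model. Some of the 17 lay barely past the middle, such as Potri.008G033000 (50.2%), Potri.010G051600 (50.9%) and Potri.010G216100 (52.3%). How many of the 432 lay as near was not counted. The median position was 75.4% of the gene length from the 5' end in the RNA genes and 59.4% in all listed genes. In SCA3 the listed coding segment, number 18, lay at 87.5% to 88.3% of the gene. In the RNA-dependent RNA polymerase gene Potri.007G081300 coding segment 17, at 91.0% to 92.3%, was listed in both CHG and CHH, while its CG region had no exonic feature.

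The same end of the gene was listed in several polymerase subunit genes. In NRPB4 the listed stretch ran from coding segment 4 at 61.4% to the 3' UTR at 98.2%, and in Potri.005G067600 from coding segment 4 at 77.1% to the gene's end. In NRPB6A (Potri.015G138800) coding segment 6 and the 3' UTR covered 85.4% to 100% of the gene. The SC35 gene Potri.002G095800 had its 3' UTR from 81.7% onward, whereas the other SC35 gene had no exonic feature. Within the pair of Potri.002G004600 and Potri.005G256700 both had the 3' UTR listed, from 82.7% to the end of the first gene and from 77.1% to 83.0% of the second.

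A smaller group was listed at or near the 5' end. In Potri.010G216800 the 5' UTR, the first 224 bases of the gene, was listed in CG. Potri.016G062600 had its 5' UTR and coding segment 1 listed in CG, within the first 359 bases, and coding segment 9 listed in CHG at 21.5% to 22.0% of the gene. In SCL30A the 5' UTR and coding segments 1 and 2 were listed, from 21.1% to 39.8%. In Potri.001G248100 coding segments 1 and 2 were listed in CHG, from 17.8% to 27.8%.

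The remaining genes with exonic features were listed between these ends or toward the 3' end. In the NMD3 family gene Potri.004G085700 coding segment 1, 44.3% to 91.9% of the gene, was listed in CHG. Its length says where the segment lies, not how far the methylated region reaches. In Potri.003G102900, the polymerase subunit of the N type, coding segment 3 and the 3' UTR were listed in CHG, from 44.7% to 61.2%.

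Among the RNA-binding genes, Potri.017G033400 had coding segments 7 and 8 listed in CG, from 66.0% to 88.6%, apart from its promoter window. The KH genes were both listed in CG toward the 3' end, Potri.014G045000 from 66.3% to its end and Potri.007G065500 from 73.3% to 81.1%, although their logFC differed in sign. Potri.018G083100 had coding segment 2 listed at 72.1% to 78.8%, while the other gene of its pair had no exonic feature. Near the middle lay coding segments 10 and 11 of Potri.010G216100 (50.6% to 53.9%) in CG, a 3' UTR segment of Potri.010G051600 (47.1% to 54.6%) in CG and CHG, and a 5' UTR segment of Potri.008G033000 (47.3% to 53.1%) in CHG.

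**Figure D4:**
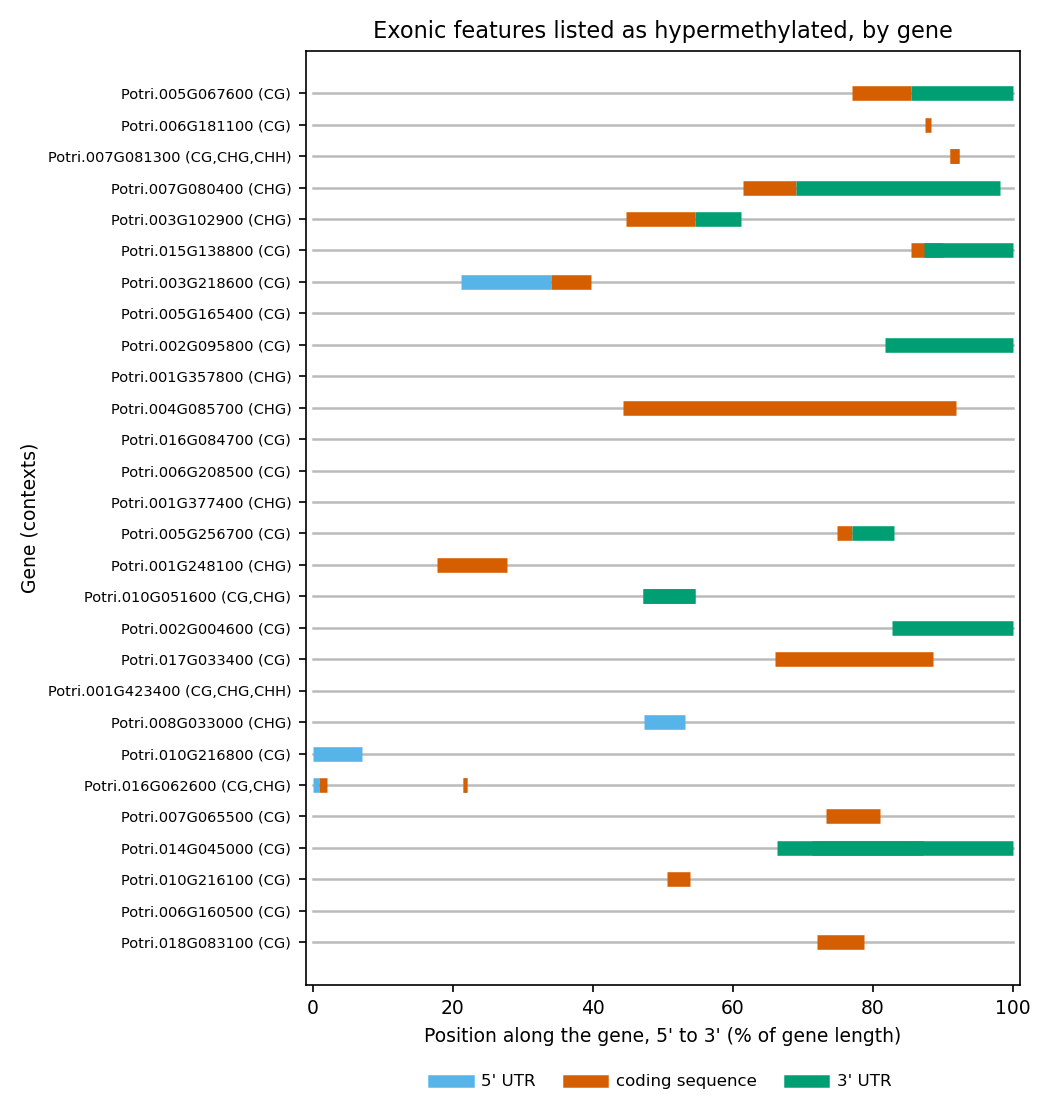
Exonic features listed as hypermethylated for the 28 RNA genes with a transcribed region entry, drawn along each gene as percent of its length from the 5' to the 3' end (x axis), with contexts in brackets. Bars span the listed 5' UTR, coding sequence or 3' UTR and the introns between segments, not the methylated region itself; later bars cover earlier ones, and 17 of the 21 genes with bars have their middle closer to the 3' end.

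Gene length did not separate the signs among these genes as far as among all listed genes. The 19 negative RNA genes with gene coordinates had a median length of 4266 bases and the 9 positive ones 4400 bases, with ranges of 1792 to 16615 and 2376 to 17929 bases that overlap almost fully. Over all listed genes with 1 gene model the medians were 3647 bases for negative and 4941 bases for positive genes. The difference between the RNA genes and the rest in this respect was not tested.

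The promoter was listed as hypermethylated for 6 RNA genes, 5 in CG and 1 in CHG, against 8.49% and 5.20% of all listed genes. The methylation differences in the authors' deposited tables are negative throughout under a title that calls the regions hypermethylated, so they were taken to be WT minus the knockdown and are given as gains in percentage points. At the 5 CG promoters the gain lay between 15.7 and 27.4 points in KD2, with a median of 17.5, and between 18.1 and 31.5 points in KD5, with a median of 24.3. The medians over all 49 listed CG promoters were 19.4 and 25.6 points. The gain was larger in KD5 than in KD2 at all 5 CG promoters, against 77.6% of the 49. Each line is 1 library, and both share the WT library.

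For 3 of the 6 genes the window lay on the chromosome of the identifier and was 2000 bases long. The promoter of SCL33 (Potri.006G197000, chromosome 6, 21255689 to 21257688) had a CG gain of 19.5 points for KD2 and 24.3 for KD5 in the authors' deposited tables. The promoter of the RRM gene Potri.010G216800 (chromosome 10, 20353973 to 20355972), which ends at the base before the listed gene, had a gain of 17.5 points for KD2 and 22.3 for KD5 in the authors' deposited tables. Its 5' UTR was listed in CG as well, so the methylated stretches of this gene lie on both sides of its start. Potri.006G132300 (chromosome 6, 10857042 to 10859041) had the smallest CG gains of the RNA genes in the authors' deposited tables, 15.7 points for KD2 and 18.1 for KD5. All 3 lay in the lower or middle part of the 49 CG promoters, at ranks 24 to 45 in KD2 and 27 to 42 in KD5, where rank 1 is the largest gain.

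For the other 3 the window lay on a chromosome that the identifier does not name, which holds for 12.0% of the 83 listed promoters. The window listed with the RRM gene Potri.003G130300 lies on chromosome 1 (8090874 to 8091771) and had a CG gain of 27.4 points for KD2 and 30.02 for KD5 in the authors' deposited tables. For Potri.017G063100 it lies on chromosome 1 (32875691 to 32876720), with 16.7 points for KD2 and 31.5 for KD5 in the authors' deposited tables, the widest gap between the lines among these genes. For Potri.017G033400 it lies on chromosome 7 (14248601 to 14249697), with a CHG gain of 16.1 points for KD2 and 15.2 for KD5 in the authors' deposited tables. These windows are 898, 1030 and 1097 bases long, and they may belong to other genes. Without them the CG medians over 3 promoters were 17.5 points for KD2 and 22.3 for KD5.

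**Figure D5:**
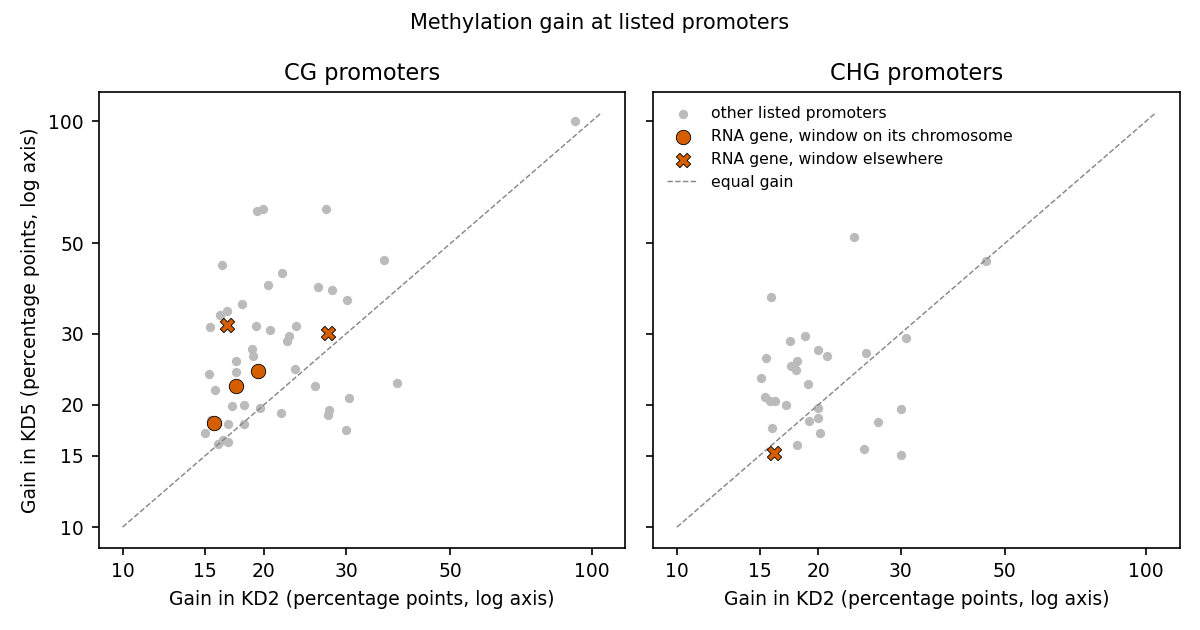
Methylation gain in KD2 (x axis) and KD5 (y axis), in percentage points on log axes, at the 49 CG and 30 CHG promoters listed. Orange circles are RNA genes with a window on the chromosome of their identifier and crosses those with a window elsewhere; all 5 in CG lie above the line of equal gains and the 1 in CHG just below it.

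Listed genes with a ribosomal or pentatricopeptide annotation, none of which held a word of the rule, had more uniform signs. Of 35 listed genes with a ribosomal annotation, most of them parts of the ribosome, 32 had a negative logFC, with a median logCPM of 7.29. All 7 listed pentatricopeptide genes, whose proteins process organelle transcripts, had a positive logFC, with a median logCPM of 2.81. The RNA genes, with a median logCPM of 5.34, lay between them in both logCPM and share of negative genes. No test of these differences was made, and the order of the shares is the same as that of logCPM.

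The RNA genes were spread over 14 chromosomes by their identifiers, with at most 5 on any of them (chromosome 6), followed by 4 on chromosome 1. Of the 28 with gene coordinates, 2 neighbouring pairs lay within 100 kb of each other. The same counts over all listed genes are not given here, so neither can be called unusual. NRPB4 and the RNA-dependent RNA polymerase gene on chromosome 7 were 86.1 kb apart, and the authors' deposited tables gave 0.80 and 0.88 for them. On chromosome 10 Potri.010G216100 and Potri.010G216800 were 46.2 kb apart, with -0.81 and -1.49 in the authors' deposited tables.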

How the data were processed

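The tools named in the submitters' processing notes are Bismark and methylKit, with no version; the coverage minimum or build is not given in the sources used here. Gene models carry a Phytozome tag per the file headers and contents, and coordinates are printed as deposited. Values came from the authors' 6 tables of comparisons, 3 for promoters and 3 for transcribed regions; none is per library. The authors deposited logFC and logCPM, read as log2 values, and, per the file headers, each gene's expression p-value and FDR; all listed FDR values are below 0.05. The program is not stated. Methylation differences in percentage points, deposited by the authors, had their sign turned.

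Each gene was counted once. The members and lists were chosen with earlier results of these data known, so counts are descriptions and no test was run over them. Every member is named; those listed for a promoter, in several contexts, or among the 10 largest absolute logFC of a direction are described more fully. Roles follow annotation words. Pairs of 1 Arabidopsis locus, positions along genes and neighbours were looked at after the values were seen. The share of negative RNA genes carries an exact Clopper-Pearson 95% interval, and the other shares carry none. The median logFC of the RNA genes carries a 95% binomial order interval. Both treat the genes as independent, which genes of a pair may not be. The rule was checked on made-up annotations and the interval on simulated counts. Alternatives were other limits on logFC, FDR and logCPM, gene part, words of the rule, means, gain size and window position. Python 3.11.15, pandas 2.3.3 and SciPy 1.17.1 were used.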

Additional observations from a re-analysis of the deposited data

How the results depend on the processing

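The share of negative RNA genes stayed above that of positive ones under every alternative run. Requiring an absolute logFC of at least 1 left 7 negative and 5 positive genes with a median logFC of -1.02, and an FDR below 0.005 left 10 and 2 (83.3% negative) with a median of -1.02. Promoter tables alone gave 4 and 2. These counts are smaller by construction, since fewer genes enter. Of all genes listed for a promoter, 65.3% in CG, 60% in CHG and 66.7% in CHH were negative. The promoter share of the RNA genes, 66.7%, was close to these. Leaving out genes matched by exonuclease or mRNA alone, or with a logCPM under 1, or keeping transcribed region tables alone, gave 19 to 21 negative genes and a median of -0.77 to -0.79. Of all genes listed for the transcribed region, 44.8% in CG, 46.1% in CHG and 48.8% in CHH were negative. Counting 1 gene per Arabidopsis locus gave 17 negative and 10 positive, and leaving out genes whose only window lies off the chromosome of their identifier gave 20 and 10, both chosen after seeing the data. The mean logFC, which includes Potri.017G063100, was -0.09, against a median of -0.76. A stricter gain in both lines, at least 1.5 times the table's smallest, left 1 CG promoter, with 27.4 points for KD2 and 30.02 for KD5, and no CHG promoter. No member was matched by a transfer RNA phrase alone, and each gene has 1 row per table, so those alternatives changed nothing or were not run. No paired analysis was possible because each genotype has 1 library and the tables hold no value per sample. Depth is unknown, so the precision of a single gain cannot be stated.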

Other observations

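A further 13 listed genes have RNA-related annotations that the rule does not hold, by a list of words such as ribonuclease, KH domain, CCCH, helicase and translation initiation. Of these, 7 had a negative and 6 a positive logFC, with a median of -0.67 and a median logCPM of 5.44. All 3 listed KH domain-containing genes among them were negative in the authors' deposited tables, Potri.019G072500 (-0.73), Potri.006G231800 (-0.72) and Potri.013G099800 (-0.67). Their logCPM of 6.67, 8.61 and 6.84 lay in the highest of the 5 groups, where 93.1% of listed genes were negative. Potri.019G072500 and Potri.013G099800 share 1 Arabidopsis locus. Also from the authors' deposited tables, a value of -0.86 belonged to translation initiation factor IF6 (Potri.010G229800), a factor of ribosome biogenesis. Genes annotated as SUI1 translation initiation factors differed in sign, with -0.77 for Potri.007G122600 and 0.82 for Potri.006G228100 in the authors' deposited tables. RNAhelicase-like 8 (Potri.014G081100) had 0.81 in the authors' deposited tables; its name is written without the space that the rule asks for. Both ribonuclease H-like genes were positive in the authors' deposited tables, Potri.005G020000 (1.51) and Potri.001G104800 (1.40), whereas ribonuclease 2 (Potri.014G174400) had -0.70. The logCPM was 3.51 and 2.82 for the ribonuclease H-like genes, in groups where 23.5% and 30.2% of listed genes were negative. Ribonuclease 2, at 7.41, lay in the highest group.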
